A study of Drosophila melanogaster with 17 samples.

Results

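Cytosolic ribosomal protein genes encode the protein components of the ribosomes that translate nuclear messages. They were taken here as all rows whose symbol starts with RpL or RpS followed by a number, or with the stalk symbol RpLP, and whose mean over the 17 libraries was at least 1 FPKM (a fragment count scaled to transcript length and library size). The deposited table names no unit, so FPKM is taken from the tools listed for it. Its column totals are low for plain FPKM and a further scaling is possible, so levels are best read against each other. Of 14659 rows, 84 carried such a symbol and 77 passed the level, 43 of the large subunit, 31 of the small subunit and 3 of the stalk. They were part of 2383 rows that passed the same level and were tested. The lowest member that passed was RpL34a, with a mean of 7.62 FPKM, and the highest gene outside was RpS5b, with 0.355 FPKM. RpS10a, RpS28a, RpL37b and RpL22-like were listed at 0 in all 17 libraries, and RpL10Aa and RpS19b had means of 0.073 and 0.154 FPKM.

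Every library was made from fat bodies of female Drosophila larvae at the wandering stage, near the end of the third instar. All larvae carried the fat body driver cgGAL4 and UAS-Dcr2, which raises Dicer-2 and so strengthens RNA interference. Wild type was the VDRC w1118 background with these transgenes, and the knockdown carried UAS-ChREBPi(52606) in addition, an interfering RNA against the sugar-sensing transcription factor ChREBP (Mondo or Mio in flies). The control diet held 0.15 M and the high-sugar diet 0.7 M sucrose. Wild type had 6 libraries per diet. The knockdown had 3 with control food and 2 with high sugar. No group with a control interfering RNA was analysed here, so the effect of ChREBP loss and that of expressing an interfering RNA cannot be told apart. Replicates 1 to 3 of each group were labelled with 1 barcode per group (the shared-barcode set, which holds all knockdown libraries), and wild-type replicates 4 to 6 with a barcode each (the own-barcode set).

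A ribosome needs its proteins in near-equal numbers, and cells usually make the messages for them together. In animals the TOR pathway raises their production and translation when amino acids and insulin are plentiful, and in the fly loss of a single copy of many of these genes gives the Minute phenotype of slow development and thin bristles. The larval fat body senses nutrients through TOR and is among the main sites of protein production for storage, above all of the larval serum proteins.

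The target row, dmondo, lay between 1.102 and 3.01 FPKM in the wild-type libraries and between 0.187 and 0.535 FPKM in the knockdown libraries, with no overlap. The 2 knockdown libraries on high sugar stood apart from the other 15. Their summed fat body markers were 2369 and 2727 FPKM, against 5269 to 12236 FPKM elsewhere, and of the 7 tested markers 6 were called lower than in wild type on high sugar. Their summed midgut markers were 217 and 297 FPKM, against 1.76 to 111 FPKM elsewhere, and their salivary glue genes 6563 and 6779 FPKM, against 5.41 to 5884 FPKM. The glue genes did not move as 1 group, since of 9 only ng3 was called higher than in wild type on high sugar, by 1.14, while Sgs1 fell by 3.32. The values of the 2 libraries also followed transcript length more closely over 2370 tested rows (Spearman rho -0.455 and -0.457, against -0.280 to 0.0621 in the other libraries). The part of these shifts in the results below was not tested, and in bulk tissue fewer cells of a type and less RNA per cell cannot be told apart.

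The members took a large share of each library. In wild type they held 15.5 to 18.2% of the summed FPKM with control food and 15.2 to 16.8% on high sugar, and in the knockdown with control food 14.0 to 14.9%. In the knockdown on high sugar they held 20.7% and 23.6%, above all other libraries. The median member level on the log2(FPKM + 1) scale lay between 5.791 and 6.543 in the 15 other libraries and was 6.76 and 7.06 in these 2. The small subunit had the higher median in all 17 libraries, by 0.684 and 0.712 in these 2 and by 0.0193 to 0.434 in the others. The small-subunit medians of the 2 libraries, 6.82 and 7.32, lay above all others (5.80 to 6.58), while the large-subunit medians, 6.14 and 6.60, did so in replicate 2 alone (others 5.78 to 6.44).

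Single members covered a wide range. The highest mean over the 17 libraries belonged to RpL41, which encodes the smallest of the proteins, at 302 FPKM. It was followed by RpS29 (274 FPKM), RpL29 (249 FPKM), the stalk gene RpLP2 (225 FPKM) and RpS27A (225 FPKM), which encodes a fusion of ubiquitin and a small-subunit protein. The lowest after RpL34a were RpL4 (21.8 FPKM), RpS14b and RpL34b (26.6 FPKM each) and RpL13 (28.6 FPKM). FPKM is a level per length, and the annotated transcripts of the members were short, with a median of 707 bases (288 to 1512) against 1396.75 bases over all tested rows with a length (Ensembl BDGP6). The values of very short transcripts depend on how fragments were selected and modelled, so the order at the top is less sure than the order of one gene across libraries.

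**Figure D1:**
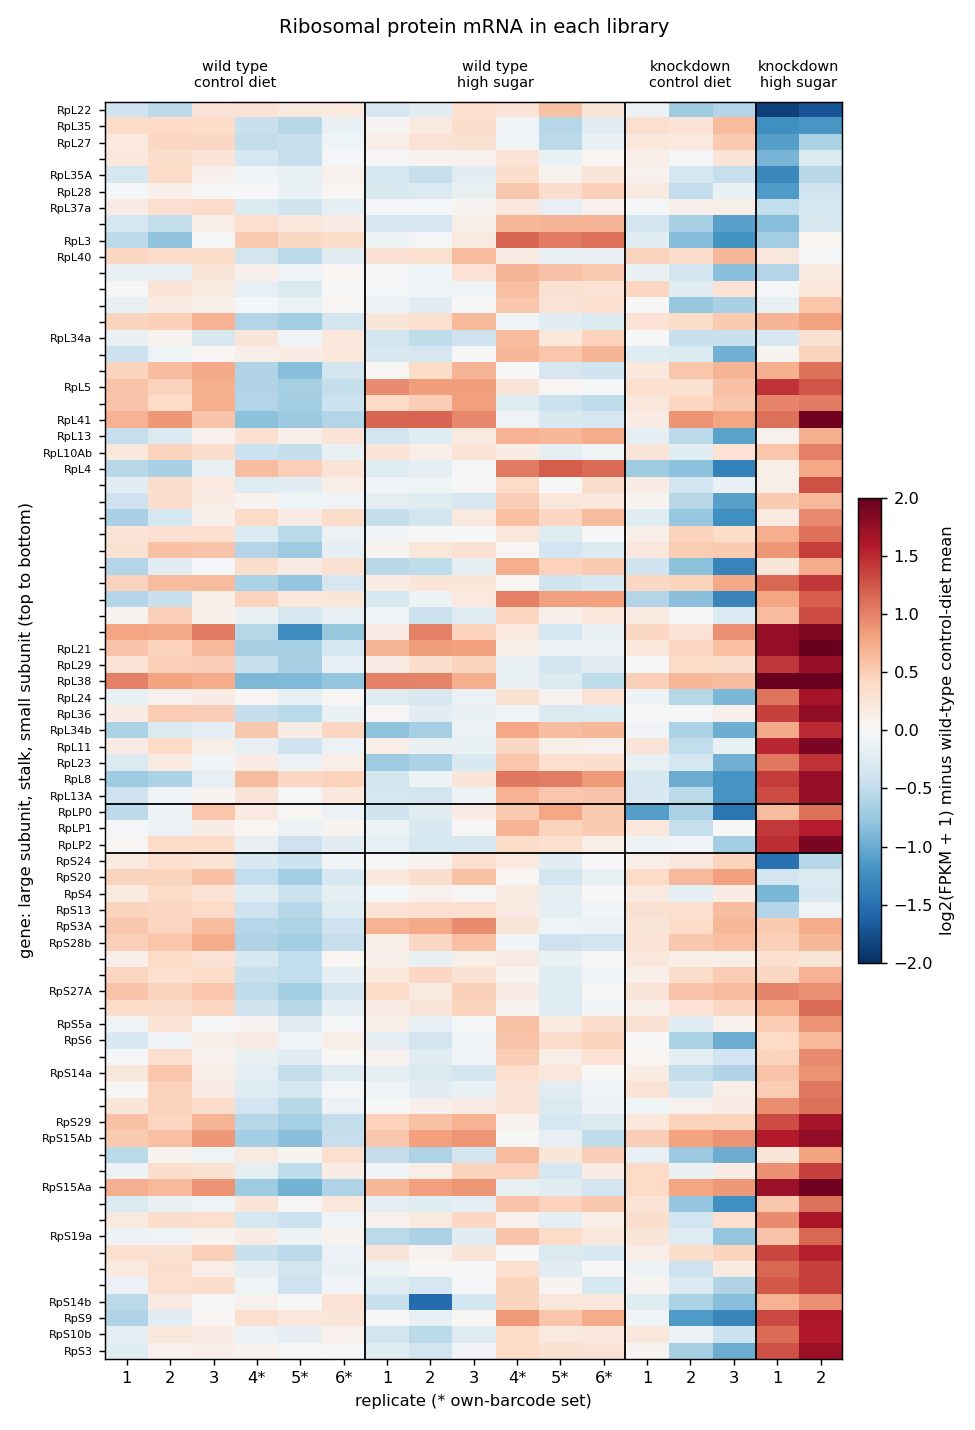
Ribosomal protein mRNA in each library. Rows are the 77 genes (large subunit, stalk, small subunit from top to bottom, each ordered by the change between knockdown and wild type on high sugar), columns are the 17 libraries by group, and colour is the log2(FPKM + 1) level minus the gene's mean in wild type on the control diet, with colours saturated at 2 in either direction. Names are given for a part of the rows. The 2 knockdown libraries on high sugar hold both the darkest red and the darkest blue cells, and an asterisk marks the own-barcode set.

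The profile of members also followed the barcode set. Across the 77 members the Pearson correlation of log2 levels was 0.936 to 0.986 between libraries of the shared set other than the knockdown on high sugar, 0.919 to 0.986 within the own set, and 0.689 to 0.903 between a library of one and a library of the other. The 2 knockdown libraries on high sugar correlated at 0.984 with each other, at 0.693 to 0.811 with the rest of the shared set and at 0.709 to 0.771 with the own set. These correlations run across genes, which are not independent replicates. RpL38 had a mean of 128 ± 12.3 FPKM in the shared-set libraries of wild type on the control diet and 38.3 ± 1.64 FPKM in the own-set libraries (SD, n = 3 each), while RpL8 went the other way, at 17.7 ± 4.00 and 36.02 ± 2.96 FPKM. The barcode set was therefore a term in the test.

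Knockdown and wild type were compared on high sugar to ask what the fat body's ribosomal protein messages do when ChREBP is low and sugar is plentiful. Of 77 members 46 were higher and 11 lower in the knockdown (limma, Benjamini-Hochberg adjusted p under 0.05 over the 2383 rows). The background was high, with 60.6% of all tested rows called, 27.2% up and 33.4% down. The median change of the members was 0.74 on the log2(FPKM + 1) scale, against -0.08 over all tested rows. Without knockdown replicate 2 on high sugar, which leaves 1 library in that group, assumed to vary like the other groups, 37 members or 48.1% were called, 24 up and 13 down, a share close to that of all tested rows (47.6%, 19.9% up and 27.7% down). Without replicate 1 it was 49, 44 up and 5 down, where 50.9% of all tested rows were called, 22.6% up and 28.3% down.

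In the large subunit 21 of 43 members rose and 7 fell, with a median change of 0.46. RpL13A measured 46.0 to 98.1 FPKM (median 72.4) in wild type on high sugar and 150 and 203 FPKM in the knockdown. Both knockdown libraries lay above all 6 of wild type, and the change was 1.65 ± 0.24 (SE, adjusted p = 4.6e-05). RpL8, whose protein sits near the peptidyl transferase centre, measured 19.1 to 53.1 FPKM (median 37.9) and 67.5 and 86.0 FPKM, a rise of 1.63 ± 0.24. RpL23, RpL11, RpL34b, RpL36, RpL24, RpL38 and RpL29 rose by 1.21 to 1.58. RpL11 and RpL5 make proteins that bind the smallest ribosomal RNA together before they enter the large subunit. RpL11 rose by 1.56 ± 0.24 and RpL5 by 0.39 ± 0.15 (adjusted p = 0.039). The call of RpL5 was lost without either of the knockdown libraries on high sugar, without wild-type replicate 1, 2, 3 or 6 on that diet and without wild-type replicate 2 or 6 on the control diet, and its direction turned (-0.20) relative to the family median. It was also lost with no minimum level, with no set term and with equal totals. RpL3 and RpL4, 2 long proteins of the subunit's core, changed by -0.39 ± 0.27 and 0.51 ± 0.23 and were not called (adjusted p = 0.22 and 0.061).

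All 3 stalk genes rose, with a median of 1.46. The stalk is the flexible arm of the large subunit that recruits translation factors, with RpLP0 as its base and RpLP1 and RpLP2 as its tips. RpLP2 measured 140 to 233 FPKM (median 179) in wild type on high sugar and 505 and 666 FPKM in the knockdown, with a change of 1.69 ± 0.28 (adjusted p = 0.00011). RpLP1 measured 86.2 to 171 FPKM (median 126) and 287 and 320 FPKM, a rise of 1.46 ± 0.22. In both genes the groups did not overlap. RpLP0 measured 34.8 to 79.7 FPKM (median 58.9) against 71.2 and 100 FPKM, so its groups overlapped, through own-set wild type alone. RpLP0 rose by 0.84 ± 0.31 (adjusted p = 0.028). Its call was lost without knockdown replicate 2 on high sugar and without wild-type replicate 1 or 2 on that diet, and also relative to the family median and with no set term.

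In the small subunit 22 of 31 members rose and 4 fell, with a median of 0.79. RpS3, part of the channel through which the message enters, measured 35.4 to 61.0 FPKM (median 50.4) in wild type on high sugar and 113 and 153 FPKM in the knockdown. It rose by 1.58 ± 0.25 (adjusted p = 7.7e-05). RpS10b rose by 1.55 ± 0.25 and RpS9 by 1.45 ± 0.27, with both knockdown libraries above all wild-type libraries for each. RpS6, the substrate of S6 kinase in the TOR pathway, rose by 0.60 ± 0.24 (adjusted p = 0.039). Its call was lost without either of the knockdown libraries on high sugar, without wild-type replicate 1, 2 or 3 on that diet and without replicate 1 of wild type fed control food. It was also lost with no minimum level, relative to the family median and with the length trend removed. The same held with no set term, with equal totals and with a term for replicate number (a replicate block). The share called was 26 of 31 in the small subunit and 28 of 43 in the large subunit, and the difference between the subunits was not tested. Over all members 40 had both knockdown libraries above all wild-type libraries on high sugar and 9 had both below, where 29.6% and 29.3% of all tested rows did so.

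**Figure D2:**
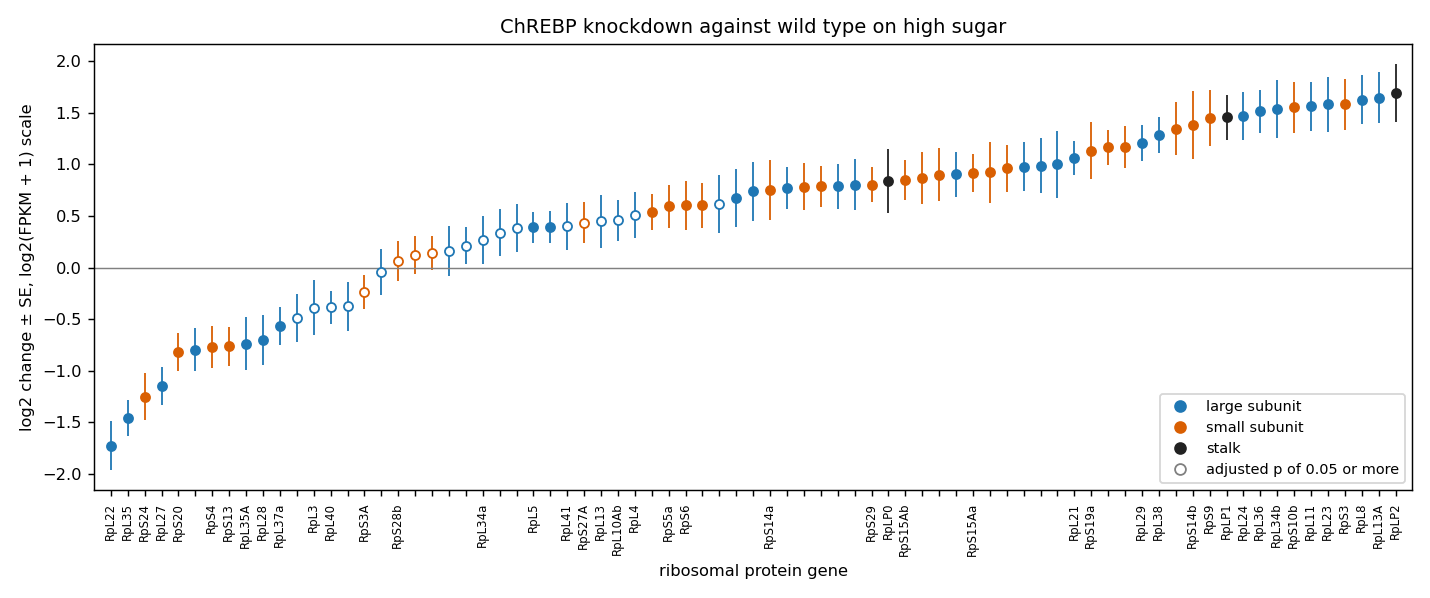
Change of each of the 77 genes between knockdown and wild type on high sugar. The vertical axis is the log2 change on the log2(FPKM + 1) scale with its SE (n = 2 knockdown and 6 wild-type libraries), filled symbols are called and open symbols are not, and a part of the genes are named. The changes run from -1.73 for RpL22 to 1.69 for RpLP2, with 11 filled symbols below 0 and 46 above.

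A small group ran against the others. RpL35 (CG4111) measured 76.6 to 146 FPKM (median 114) in wild type on high sugar, and 48.5 and 50.8 FPKM in the knockdown. On the control diet it measured 77.8 to 152 FPKM (median 126) in wild type and 143, 138 and 179 FPKM in the knockdown. The 2 knockdown libraries on high sugar lay below the other 15. Between knockdown and wild type on high sugar RpL35 fell by 1.46 ± 0.17 (adjusted p = 6.7e-06). RpL35 makes a protein at the mouth of the tunnel through which the new chain leaves the large subunit.

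RpL22 (CG7434) had lower levels throughout, and its lowest libraries were the same 2. It measured 29.5 to 56.8 FPKM (median 45.0) in wild type on high sugar and 9.54 and 10.6 FPKM in the knockdown. On the control diet it measured 25.7 to 45.7 FPKM (median 42.4) in wild type and 34.4, 22.5 and 24.4 FPKM in the knockdown, above the 2 knockdown libraries on high sugar in every case. The fall against wild type on high sugar was 1.73 ± 0.24 (adjusted p = 2.3e-05). Its protein binds RNA on the outer face of the large subunit. RpL35 and RpL22 kept their direction in all 29 alternatives tried for this comparison, with changes of -2.05 to -1.15 and -2.32 to -1.60. Both were called in the 12 alternatives other than leaving out 1 library. The 2 genes were named in advance with earlier results of these data known, and the alternatives reuse the same libraries, so this is no separate test.

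Among the other 9 that fell were RpS24, RpL27, RpS20, RpS4, RpS13, RpL35A, RpL28 and RpL37a, and of the 11 in all 7 belong to the large and 4 to the small subunit. RpS24 measured 62.6 to 92.6 FPKM (median 75.6) in wild type on high sugar and 25.5 and 49.1 FPKM in the knockdown, a fall of 1.25 ± 0.23 (adjusted p = 0.00026). RpL27 measured 58.7 to 106 FPKM (median 87.2) against 39.4 and 55.0 FPKM, a fall of 1.15 ± 0.18. In both genes the groups did not overlap. RpS20 fell by 0.82 ± 0.18 and RpS13 by 0.77 ± 0.19, and in both the groups overlapped, through own-set wild type alone. RpS4, RpL35A, RpL28 and RpL37a fell by 0.57 to 0.77, without overlap. In all 11 genes that fell, replicate 1 was the lower of the 2 knockdown libraries. The same held for most members, and the median member level was 6.76 in replicate 1 and 7.06 in replicate 2. The calls of RpS4, RpS13, RpL35A, RpL28 and RpL37a were lost when replicate 1 was left out, while those of RpL35, RpL22, RpS24, RpL27 and RpS20 were kept. The calls of RpL28 and RpL35A were also lost in the shared set alone and with a replicate block. Those of RpL37a, RpS13 and RpS20 were lost with no set term.

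**Figure D3:**
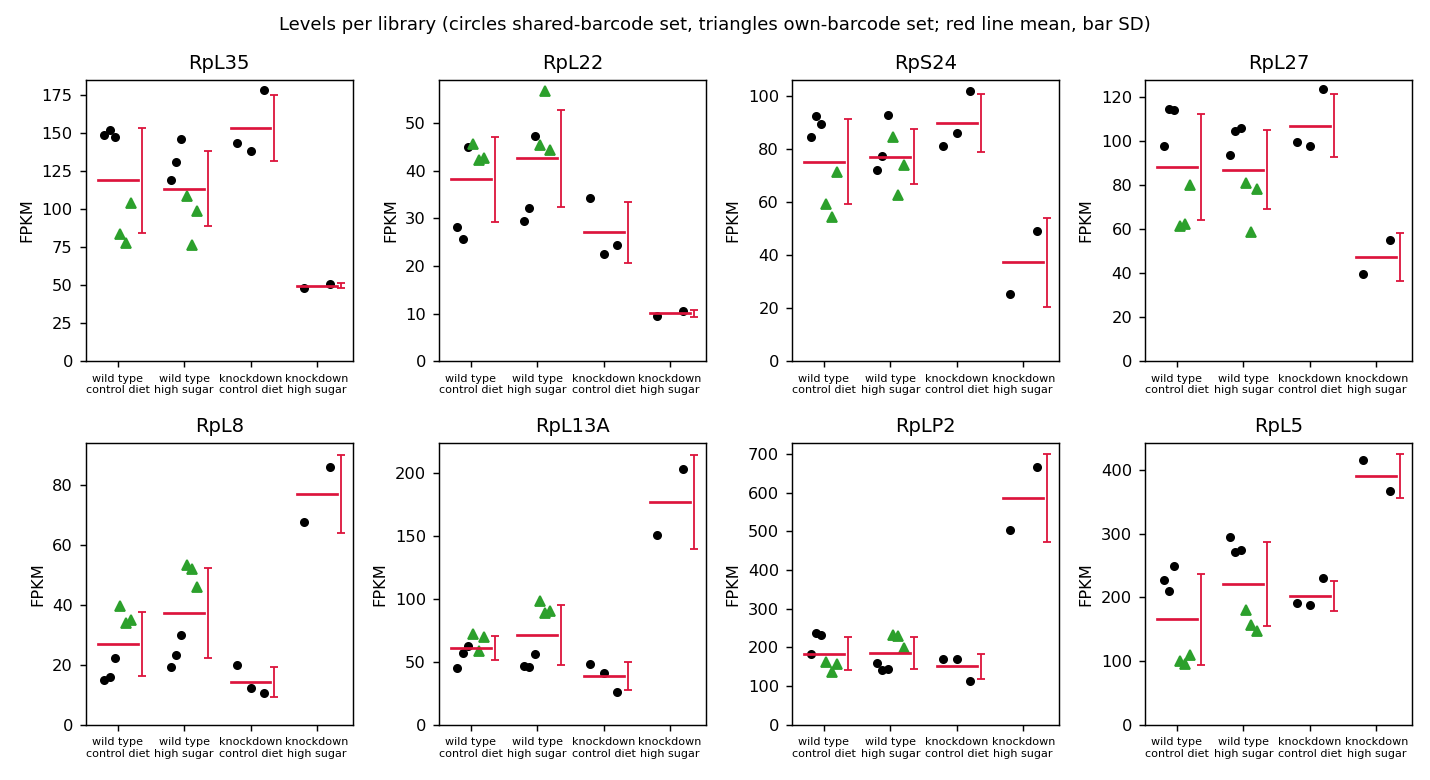
FPKM of RpL35, RpL22, RpS24, RpL27, RpL8, RpL13A, RpLP2 and RpL5 in each library, by group. Circles are shared-set and triangles own-set libraries, the red line is the group mean and the bar its SD (n = 6, 6, 3 and 2). In the first 4 panels the 2 knockdown libraries on high sugar lie at the bottom, at 48.5 and 50.8 FPKM for RpL35, and in the next 3 at the top, at 505 and 666 FPKM for RpLP2.

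The spread among members was measured relative to the family by subtracting each library's median member level. On that scale 20 members were higher and 22 lower in the knockdown on high sugar (58.1% of all tested rows called, 8.52% up and 49.6% down). The subtraction moved the change of every row by -0.59, and the share of all rows called down moved with it. All 11 that fell on the plain scale were among the 22, which largely follows from that move and is no separate result. RpL35 was lower by 2.05 ± 0.16 (value -2.05, adjusted p = 7.5e-08) and RpL22 by 2.32 ± 0.26 (value -2.32, adjusted p = 1.8e-06). Of the stalk, RpLP2 and RpLP1 were higher by 1.103 ± 0.20 and 0.87 ± 0.13. The other members called lower on this scale included RpL3, at -0.98 ± 0.26, and RpL40, a fusion of ubiquitin and a large-subunit protein, at -0.97 ± 0.17. No member called higher on the plain scale was called lower on this one. With each library's trend against transcript length removed, 29 members were higher and 15 lower, with a median of 0.33. These 57.1% of members stand close to the 55.1% called among the 2370 tested rows with a length (26.6% up and 28.5% down).

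The annotation of the members that fell is given beside that of all 77, which include them, and was not tested. Their transcripts had a median length of 635 bases (564 to 1100) and their median level in wild type on the control diet was 75.1 FPKM, against 707 bases and 74.4 FPKM over all members. Of the 11, 4 hold a snoRNA gene in the annotation, against 28 of 77. In 3 of them (RpL27, RpL28 and RpS20) an exon overlaps a protein-coding gene on the opposite strand, against 18 of 77, and 3 lie on the X chromosome, against 14 of 77. Whether the reads were counted by strand is not stated, so in those genes reads of the partner cannot be told apart. RpL35 and RpL22 have no such overlap. Across the 77 members the change had a Spearman rho of -0.035 with transcript length, against -0.406 across the 2370 tested rows with a length.

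The diet was then compared within the knockdown, 2 libraries on high sugar against 3 on the control diet. This comparison shares the 2 high-sugar libraries with the last one, so the values are given side by side and are not a second test. On high sugar 53 members were higher and 10 lower, with a median of 0.95, where 60.3% of all tested rows were called (29.2% up and 31.1% down). All 3 stalk genes rose, RpLP2 by 1.96 ± 0.30, RpLP0 by 1.93 ± 0.33 and RpLP1 by 1.57 ± 0.23. RpLP0 measured 20.9, 29.5 and 16.0 FPKM on the control diet and 71.2 and 100 FPKM on high sugar. In the large subunit 28 of 43 rose and 6 fell, with RpL8 up by 2.40 ± 0.25 from 19.9, 12.1 and 10.5 FPKM. In the small subunit 22 of 31 rose and 4 fell, with RpS9 up by 2.31 ± 0.29 from 40.6, 18.8 and 16.5 FPKM to 108 and 133 FPKM. RpL35 fell by 1.60 ± 0.18 (adjusted p = 3.6e-06) and RpL22 by 1.32 ± 0.25 (adjusted p = 0.00034). Of the 11 members lower than in wild type, 10 were also lower than on the control diet, the exception being RpL28 at -0.61 ± 0.26 (adjusted p = 0.051). The split became 35 up and 13 down (median 0.53) with the length trend removed, where 57.3% of the rows were called, 28.4% up and 28.9% down. Relative to the family it was 31 up and 15 down, where 54.9% of all tested rows were called (8.73% up and 46.2% down). Leaving out a knockdown library on high sugar leaves 1 library in that group. The median change of the members was 1.17 without replicate 1 and 0.69 without replicate 2.

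Whether the diet acted differently in the 2 genotypes was asked with the interaction of diet and knockdown. It was called for 54 members, 45 up and 9 down, with a median of 0.76, where 51.8% of all tested rows were called (23.5% up and 28.3% down). Of the members called in both preceding comparisons, 44 of the 46 higher and 8 of the 10 lower were called in the same direction here. The interaction shares the knockdown libraries on high sugar with both comparisons, so this overlap is not a further test. RpL13A had an interaction of 2.03, RpS3 and RpS9 of 1.98 each, RpLP2 of 1.96 and RpL8 of 1.95. RpL35 had -1.56 ± 0.22 (adjusted p = 4.8e-05) and RpL22 -1.47 ± 0.29 (adjusted p = 0.00077). Without knockdown replicate 2 on high sugar 35 members were called, 25 up and 10 down, where 39.6% of all tested rows were called, 16.5% up and 23.1% down. With no term for the barcode set it was 30, 26 up and 4 down, where 35% of all tested rows were called, 14.7% up and 20.2% down. With the length trend removed 29 were up and 14 down (median 0.35), where 47.1% of the rows were called, 23% up and 24.1% down. Relative to the family it was 22 and 18, where 47.3% of all tested rows were called (6% up and 41.3% down). In all 5 comparisons together 67 members were called at least once and 10 never. Those never called were RpL6, RpL12, RpL23A, RpL31, RpL34a, RpL36A, RpS25, RpS27, RpS27A and RpS28b. The share of all tested rows called at least once was not counted, so the 67 have no background to be read against. Single comparisons already called 60.6% (knockdown against wild type on high sugar), 60.3% (diet in the knockdown) and 51.8% (interaction) of all tested rows.

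In wild type the effect of high sugar on the family was small. Of 77 members 5 rose and none fell in limma, where 15.5% of all tested rows were called, 9.44% up and 6.08% down. At an unadjusted p under 0.05 it was 10. The median change was 0.10, against 0.02 over all tested rows. With each library scaled to the same total it turned to -0.04, and 3 members were called, 2 up and 1 down (17.5% of all tested rows). RpL5 measured 95.8 to 250 FPKM (median 159) on the control diet and 148 to 294 FPKM (median 225) on high sugar, and the ranges overlapped. It rose by 0.48 ± 0.10 (adjusted p = 0.0063). RpS3A rose by 0.41 ± 0.11, RpL21 by 0.38 ± 0.11, RpL4 by 0.48 ± 0.15 and RpL3 by 0.56 ± 0.18 (adjusted p = 0.020 to 0.048). The call of RpL5 held with any 1 of the 17 libraries left out, that of RpS3A in 15, of RpL21 in 12, of RpL4 in 8 and of RpL3 in 5 of the 17 cases. The count of 5 fell to 3 without control-diet replicate 1, 2 or 6, to 1 without replicate 4 or 5, and to 2 without high-sugar replicate 4, 5 or 6. In these fits 10.9% to 16.4% of all tested rows were called. RpL35 changed by -0.04 ± 0.12 and RpL22 by 0.15 ± 0.16 (adjusted p = 0.85 and 0.54).

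In the values as deposited the 2 barcode sets gave different pictures of that diet. Within the shared set the median of the members was -0.14 and none was called (6.38% of all tested rows), with 10 at an unadjusted p under 0.05. Within the own set the median was 0.35, all 77 members had a positive change and 13 were called higher (33.4% of all tested rows, 21.4% up). The difference between the sets was itself called for 11 members, all larger in the own set (19.8% of all tested rows, 13.7% up). These differences depended on the scale of the libraries, whose totals in the own set were 29778.6 to 33180.5 FPKM on the control diet and 40140.5 to 45721.5 FPKM on high sugar. With each library scaled to the same total the medians were -0.02 in the shared and -0.06 in the own set. No member was called in either set or for their difference. Of all tested rows 5.83% were called in the shared set, 36.8% in the own set and 18.9% for the difference. With each library's median level subtracted instead, the medians of the members were -0.12 and 0.30. On that scale 11 members were called in the own set (32.9% of all tested rows) and 8 for the difference (17.8%). RpLP2 measured 183, 236 and 231 FPKM on the control diet and 160, 140 and 144 FPKM on high sugar in the shared set. In the own set it measured 162, 135 and 156 FPKM and 233, 228 and 198 FPKM, so the direction turned between the sets. The change was -0.54 ± 0.18 (adjusted p = 0.095) in the shared set and 0.54 ± 0.18 (adjusted p = 0.029) in the own set, a difference of 1.07 ± 0.25 (adjusted p = 0.0083). With equal totals the difference was 0.54 and not called (adjusted p = 0.12). RpL5 changed in the same direction in both, by 0.29 ± 0.12 in the shared set (adjusted p = 0.21) and by 0.66 ± 0.12 in the own set (adjusted p = 0.0011), or by 0.41 and 0.25 with equal totals (adjusted p = 0.058 and 0.12). In the model that gave each combination of group and set its own mean, over all 17 libraries, 62 members differed within the shared set between knockdown and wild type on high sugar (63.8% of all tested rows) and 66 between the diets in the knockdown (65.1%). Fitted on the shared-set libraries alone it was 55 (60.6% of all tested rows) and 63 (62.1%).

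**Figure D4:**
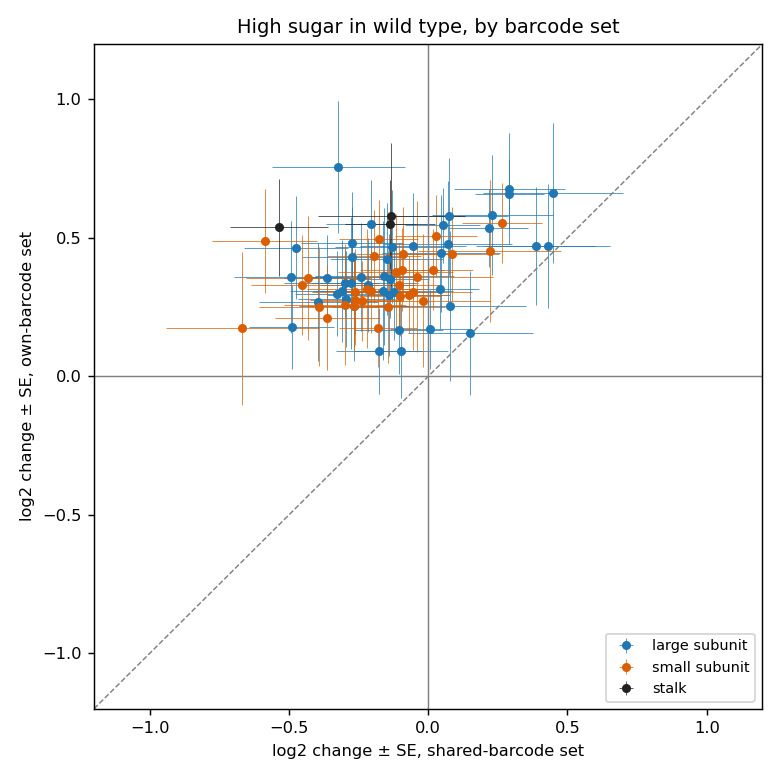
Effect of high sugar in wild type for each of the 77 genes in the 2 barcode sets. The horizontal axis is the log2 change in the shared set and the vertical axis that in the own set, both with SE (n = 3 against 3 libraries each), and the dashed line marks equal change. All 77 points lie above 0 on the vertical axis, around a median of 0.35, and the horizontal median is -0.14, while with each library scaled to the same total both medians lie below 0, at -0.06 and -0.02.

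On the control diet no member differed between knockdown and wild type in limma, where 5.62% of all tested rows were called, and 4 had an unadjusted p under 0.05. The median change was -0.10. The largest was that of RpLP0, which measured 31.8 to 67.7 FPKM (median 44.7) in wild type and 20.9, 29.5 and 16.0 FPKM in the knockdown. Its groups did not overlap and the change was -0.86 ± 0.27 (adjusted p = 0.082). Within the shared set RpLP0 was called lower, at -1.04 ± 0.26 (adjusted p = 0.024), as the only member, where 10% of all tested rows were called, 6.55% down. This call came from the model on all 17 libraries, and was lost in a fit of the shared-set libraries alone (5.67% of all tested rows called). RpL4 and RpL7A were the other 2 members whose knockdown libraries all lay below those of wild type, which 5.46% of all tested rows did. RpL35 changed by 0.10 ± 0.15 and RpL22 by -0.25 ± 0.21 (adjusted p = 0.79 and 0.55).

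In 7 of 10 pairs of gene copies 1 copy gave nearly all of the level. RpL10Ab, RpL22, RpL37a, RpS5a, RpS10b, RpS19a and RpS28b held over 99% of the sum of their pair in every library, so the lower level of RpL22 in the knockdown on high sugar came with its copy RpL22-like listed at 0 throughout. The 3 pairs with both copies passing were RpL34a and RpL34b, RpS14a and RpS14b, and RpS15Aa and RpS15Ab. RpL34b held 67.3 to 79.7% of its pair in the other 15 libraries and 86.8% and 87.1% in the knockdown on high sugar. In wild type RpL34a measured 7.78 ± 1.295 FPKM with control food (SD, n = 6) and 8.14 ± 3.16 FPKM on high sugar (n = 6), and in the knockdown 6.14 ± 1.32 FPKM (n = 3) and 7.81 ± 2.66 FPKM (n = 2). RpL34b measured 23.7 ± 7.47, 26.4 ± 12.1, 15.7 ± 5.401 and 52.4 ± 18.9 FPKM in the same order. Between knockdown and wild type on high sugar RpL34b rose by 1.54 ± 0.28 (adjusted p = 0.00025), a call lost with no set term. RpL34a changed by 0.27 ± 0.23 (adjusted p = 0.33), and the difference between the copies was not tested.

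In the other pairs the shares in the 2 knockdown libraries on high sugar lay within the range of the other 15. RpS15Ab held 25.4 to 30.4% of its pair over the 17 libraries. RpS15Aa and RpS15Ab rose by 0.92 ± 0.18 and 0.85 ± 0.19 in the knockdown on high sugar, and both calls were lost relative to the family median. RpS14b held 13.1 to 36.2%, a wider range than that of RpL34b, with 29.7% and 28.3% in these libraries. Both lay above the other libraries of the shared set, which held 13.1 to 27.5%. RpS14a rose by 0.75 ± 0.29. Its call was lost without either of the knockdown libraries on high sugar or without wild-type replicate 1, 2 or 3 on that diet. It was also lost with no minimum level, relative to the family median, with the length trend removed and with a replicate block. RpS14b rose by 1.38 ± 0.33. The sequences of the copies were not compared here. How reads were divided within each pair, RpL34a and RpL34b included, is therefore uncertain.

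Other parts of the translation machinery were set beside the family, and their counts on high sugar are to be read against the 27.2% of all tested rows called up and 33.4% called down between knockdown and wild type. Of 5 ribosomal proteins listed under other symbols (sta, sop, oho23B, Qm and Rack1), 4 were higher in the knockdown than in wild type on high sugar and none lower, with oho23B up by 0.95 ± 0.28 and sop by 0.73 ± 0.25, and all 5 were higher on high sugar than on the control diet in the knockdown. Elongation factors and proteins of the nascent chain were mixed, with 3 of 11 up and 6 down against wild type. Ef1alpha48D, which brings charged tRNA to the ribosome, fell by 1.87 ± 0.25, and the nascent-chain protein Nacalpha rose by 1.25 ± 0.22. Of 14 tested initiation genes 1 rose, eIF-2alpha, by 0.57 ± 0.14, and 7 fell, among them the cap-binding protein eIF-4E by 1.56 ± 0.15 and eIF-4B by 1.73 ± 0.15. Genes of ribosome assembly and RNA polymerase I were mostly below the level tested, and of the 2 that passed, hoip rose by 1.29 ± 0.17. All 7 tested genes of growth control fell, among them Thor (the fly 4E-BP, which holds back cap-dependent translation), which fell by 3.49 ± 0.21, Akt1 by 0.82 ± 0.12 and Rheb, the activator of TOR, by 0.83 ± 0.17. In wild type, high sugar called 1 of these genes, Ef2b, up by 0.45 ± 0.13, and on the control diet the knockdown called 1, Thor, down by 0.98 ± 0.19.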

How the data were processed

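RNA selection, strand and annotation are not given in the sources used here. Reads were aligned to dm3 with TopHat 1.3.2 and Bowtie 0.12.7 and quantified with Cufflinks 1.1.0, per the submitters' processing notes. The deposited table names no unit, and its values were taken as FPKM from the authors' tool list. The totals are smaller than FPKM columns usually reach, and another scaling step by the authors may lie behind them. Low values did not fall on whole-read steps, so depth is unknown. Totals per library were 29778.6 to 62263.5.

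Values were analysed as log2(FPKM + 1), which understates changes of low genes, for rows with a mean of at least 1 FPKM. Limma 3.58.1 in R 4.3.3 fitted the 4 groups and the barcode set together, with trended and robust empirical Bayes, 2-sided tests and Benjamini-Hochberg adjustment over all tested rows at 0.05. Log2 changes are adjusted for barcode set and can differ from ratios of group means. Within-set values came from a model in which every combination of group and set had its own mean. The labels call the replicates biological without saying that they came from separate animals or cultures, so p-values measure the spread between these samples. Lengths and gene overlaps came from Ensembl BDGP6, matched by symbol, and no coordinates were transferred between builds. Sequences and promoter motifs were not used here. The code was tested on simulated data.

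Any member called in a comparison or relative to the family, any member of a pair of copies, and the highest and lowest members could be named; those printed were picked from them after their values were seen, as were RpL7A and, among other lists, Nacalpha. The members and lists were chosen with earlier results of these data known, and RpL35 and RpL22 were named in advance as members that move against the rest. Alternatives were other pseudocounts, level minimums, scalings, set terms, a replicate block, and each library left out. Scaling to equal totals was chosen after seeing the data. 1 member is not reported by name here.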

Additional observations from a re-analysis of the deposited data

Results flagged for a closer look

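The share of summed FPKM held by the members in wild-type replicate 6 on the control diet was 18.2%, apart from the other 5 libraries of its group. It was 1 of 94 groups of values examined in this way, and chance flags about 1 in 20.

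The effect of high sugar differed between knockdown and wild type for 54 members by the interaction in limma. The interaction was -1.56 for RpL35 and -1.47 for RpL22, and 2.03 for RpL13A, 1.98 for RpS3, 1.98 for RpS9, 1.96 for RpLP2 and 1.95 for RpL8 on the log2(FPKM + 1) scale. The knockdown libraries on high sugar also held less of the fat body markers (2369 and 2727 FPKM, against at least 5269 FPKM) and more of the midgut markers (217 and 297 FPKM, against at most 111 FPKM), and the part of this in the interaction was not tested.

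The effect of high sugar in wild type differed between the own-barcode and the shared-barcode set for 11 members. For RpLP2 the difference was 1.07 on the log2 scale (limma adjusted p = 0.0083), with higher values on high sugar in the own set and lower values in the shared set. With each library scaled to the same total no member showed such a difference, and that of RpLP2 was 0.54 (adjusted p = 0.12).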

How the results depend on the processing

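RpL35 and RpL22 kept their direction in the 3 comparisons with the knockdown on high sugar under all 29 alternatives. They kept their calls in the 12 alternatives other than leaving out 1 library. Both genes were named in advance with earlier results of these data known, and the alternatives reuse the same libraries, so this is no separate test. Shares in brackets are those of all tested rows called in the same setting. The 5 calls of wild-type diet became 2 with no minimum level (4.29%), 2 with member medians subtracted (9.82%) and 8 with the length trend removed (17.8%). With equal totals it was 3, 2 up and 1 down (17.5%). The count was 0 with no set term (7.01%), within the shared set (6.38%) and in the shared set alone (3.48%), against 13 within the own set (33.4%). Leaving out 1 library gave 1 to 7 (10.9% to 16.5%). The knockdown on the control diet had 0 calls (5.62%). It had 1 (down) with no set term (5.08%), within the shared set (10%) and with equal totals (6.63%), and 0 to 2 with 1 library left out (3.52% to 6.08%). On high sugar the 57 knockdown calls ranged from 37 to 59 with 1 library left out, the 63 of the knockdown diet comparison from 46 to 66 and the 54 of the interaction from 35 to 56, and the interaction gave 30 (26 up and 4 down) with no set term. With equal totals the knockdown calls on high sugar were 41 up and 15 down (median 0.55). Of all tested rows 58.9% were called in that setting, 22.1% up and 36.8% down. RpL5 turned to -0.20 (adjusted p = 0.33) in the knockdown on high sugar and to -0.11 (adjusted p = 0.69) in the interaction with member medians subtracted. Subtracting member medians moved the median of all tested rows by -0.59, -0.62 and -0.59 in the 3 comparisons with the knockdown on high sugar, and equal totals moved it by -0.10, -0.12 and -0.18 in the wild-type diet, knockdown on high sugar and knockdown diet comparisons. The shift with member medians follows from the subtraction, which moves all rows of a library by the same amount. Why member medians and library totals differed between groups was not tested.

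Of 12 same-numbered pairs outside the knockdown on high sugar 2 had a correlation of their deviations over 0.1 (-0.24 to 0.223). Differently numbered pairs were not examined, so whether replicate numbers pair the libraries is not settled. With a replicate block the 5 comparisons called 2, 0, 48, 60 and 45 members, in the order wild-type diet, knockdown on the control diet, knockdown on high sugar, knockdown diet and interaction. In the same order 10.4%, 3.82%, 56.4%, 56.3% and 46.9% of all tested rows were called. Depth could not be judged from these values, and a group of 2 libraries limits every comparison that uses it.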

Other observations

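The copies below the level of 1 FPKM were not silent in the same way. RpS5b was above 0 in all 17 libraries, from 0.183 to 0.650 FPKM, next to RpS5a at a mean of 68.2 FPKM. RpS19b was above 0 in 7 libraries, among them both of the knockdown on high sugar at 0.271 and 0.888 FPKM. RpL10Aa was above 0 in 3 libraries, at most 0.740 FPKM in replicate 2 of that group. The summed gonad and germline markers were 0.857 and 4.79 FPKM in these 2 libraries, against 0.000701 to 2.76 FPKM elsewhere.

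Of the other marker lists, hemocyte genes summed to 195 and 447 FPKM in the knockdown on high sugar and to 104 to 304 FPKM in the knockdown on the control diet, against 19.7 to 317 FPKM in wild type. Muscle genes summed to 9.13 and 15.7 FPKM in the knockdown on high sugar and to 0.903 to 14.8 FPKM elsewhere. Genes of imaginal discs and brain summed to 0.118 and 0.134 FPKM in the knockdown on high sugar, against 0.510 to 1.35 FPKM elsewhere.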
